A study of Drosophila melanogaster with 28 samples.

Results

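The cytosolic ribosomal protein genes of *Drosophila melanogaster* are described here across all 28 RIP-seq libraries of a study of the maternal-to-zygotic transition, the time at which the early embryo passes from maternal to zygotic RNA. Members were taken by symbol alone: a fly gene whose name begins with RpL, RpS or RpLP, followed by a number or by A. This rule gave 92 of the 16768 fly genes listed in all 3 deposited tables. Of these, 50 have a large subunit name, 38 a small subunit name and 4 the name of a P protein, the proteins of the ribosomal stalk. Mitochondrial ribosomal proteins and the subunits of the RNA polymerases carry other symbols and are not members.

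In RIP-seq a protein is immunoprecipitated, and the RNA that comes with it (IP) is set against that of the whole lysate (input). From *w1118* embryos PABP, which binds the poly(A) tails of cytoplasmic mRNAs, was recovered with synthetic antibody fragments called Fabs. The translational repressor ME31B, an RNA helicase of the DEAD-box type, was recovered with anti-GFP antibodies from *eGFP-ME31B* embryos, a line in which the protein is tagged. In both strains embryos of 0–1, 1–2, 2–3, 3–4 and 4–5 hr were used, and both IPs were also made from S2 cells, a macrophage-like line grown from embryos, which was untransfected for PABP and transfected with a plasmid for eGFP-ME31B for ME31B. Embryos mutant for the PNG kinase (*png50*), an activator of translation at egg activation, gave inputs at 0–1 and 2–3 hr, and a ME31B IP with its input at 0–1 hr, for which the series design names embryos that also carry eGFP-ME31B. The files hold 15 inputs and 13 IPs, 1 library per condition, so no difference below has a replicate check and no test was possible.

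A cytosolic ribosome is built from a large and a small subunit, and most of its proteins are present in a single copy, apart from the acidic P proteins of the stalk. The stalk recruits and activates the elongation factors that act as GTPases. In animals the mRNAs of ribosomal proteins begin with a run of pyrimidines, the TOP sequence, and are known to be translated or held back together when growth conditions change. Flies carry several ribosomal protein genes as pairs of paralogs, and in some pairs the minor gene is used mainly in the germ line.

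Several facts of the series bear on these values. Depth was estimated from the lowest FPKM step of long transcripts, with a range of about 10000000 to 16800000 reads over libraries and a median of about 12800000. In the inputs of *w1118* embryos at 0–1 and 1–2 hr, the FPKM of all fly genes summed to only 302478 and 125101, against 1021830 to 1160520 at the later ages. The maternal mRNA *osk* was at 122 to 819 FPKM in the 4 inputs of 0–1 hr and at 1.41 to 2.83 FPKM in S2 cells. Of 3 hemocyte genes, *srp* (25.3 to 36.1 FPKM) and *crq* (72.5 to 101 FPKM) were found in S2 inputs, while *Hml* was at 0.155 to 0.264 FPKM. Of these, *crq* did not set S2 cells apart, since it was at 34.4 to 172 FPKM in the 4 inputs of 0–1 hr. There *srp* was at 0.0327 to 0.451 FPKM. The mRNA *me31B* was at 1486 FPKM in the transfected S2 cells and at 50.7 FPKM in the untransfected ones. The mRNA *png* was at 58.7 to 205 FPKM in the 4 inputs of 0–1 hr, mutants included, and the labels do not say whether the allele alters its level.

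The ribosomal protein mRNAs were among the most abundant of every library. FPKM are counts of fragments divided by transcript length and by the library's mapped reads, so levels can be compared between genes within a library. Of the 92 members, 84 were above 0.5 FPKM in all 28 libraries. Together the 92 made up 28.9% of the FPKM of all protein-coding genes in the input of 0–1 hr *eGFP-ME31B* embryos and 30.8% in that of *w1118* embryos. At 4–5 hr the shares were 47.5% and 54.4%. They were 27.3% and 34.4% in *png50* embryos at 0–1 and 2–3 hr, and 39.7% and 40.0% in the S2 inputs. Between 65 and 77 of the 100 most abundant protein-coding genes of an input were members.

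Within a library the members spread widely. In the 0–1 hr *w1118* input, the 84 members ran from 27.0 FPKM (*RpS15Ab*) to 7073 FPKM (*RpL41*), with a median of 658 FPKM. The gene at the 90th percentile was 7.45 times the gene at the 10th, and over the 15 inputs this ratio was lowest in S2 cells (4.63, PABP series) and highest in *png50* embryos at 2–3 hr, with 9.42 the highest in *w1118* and 9.87 in *eGFP-ME31B* embryos. The 3 most abundant members of the 0–1 hr *w1118* input were *RpL41*, whose product is the smallest ribosomal protein, *RpL29* (3325 FPKM) and *RpL39* (2654 FPKM). The 3 least abundant were *RpS15Ab*, *RpLP0-like* (28.8 FPKM) and *RpL7-like* (49.1 FPKM), each the less abundant gene of a pair matched by symbol. *RpL41* was the most abundant member in 14 of the 15 inputs, and *RpL29* exceeded it in the S2 input of the ME31B series (7335 against 6907 FPKM).

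The order of the members was much the same at all ages. Over the 84 members, Spearman's *r_s_* between pairs of embryo inputs was 0.87 to 0.99 (78 pairs, median 0.95), and between embryo and S2 inputs 0.68 to 0.83 (26 pairs). These are correlations across genes, which are not independent replicates. Part of the spread went with length: the median annotated transcript of the 84 members is 708.5 nt (288 to 1512 nt), against 1866 nt over 5720 genes expressed in all libraries, and *r_s_* between level and length was −0.35 to −0.40 in the 13 embryo inputs and −0.29 in both S2 inputs. FPKM of very short transcripts rests on an estimate of how many fragments fit them, and its part in these levels was not tested.

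**Figure D1:**
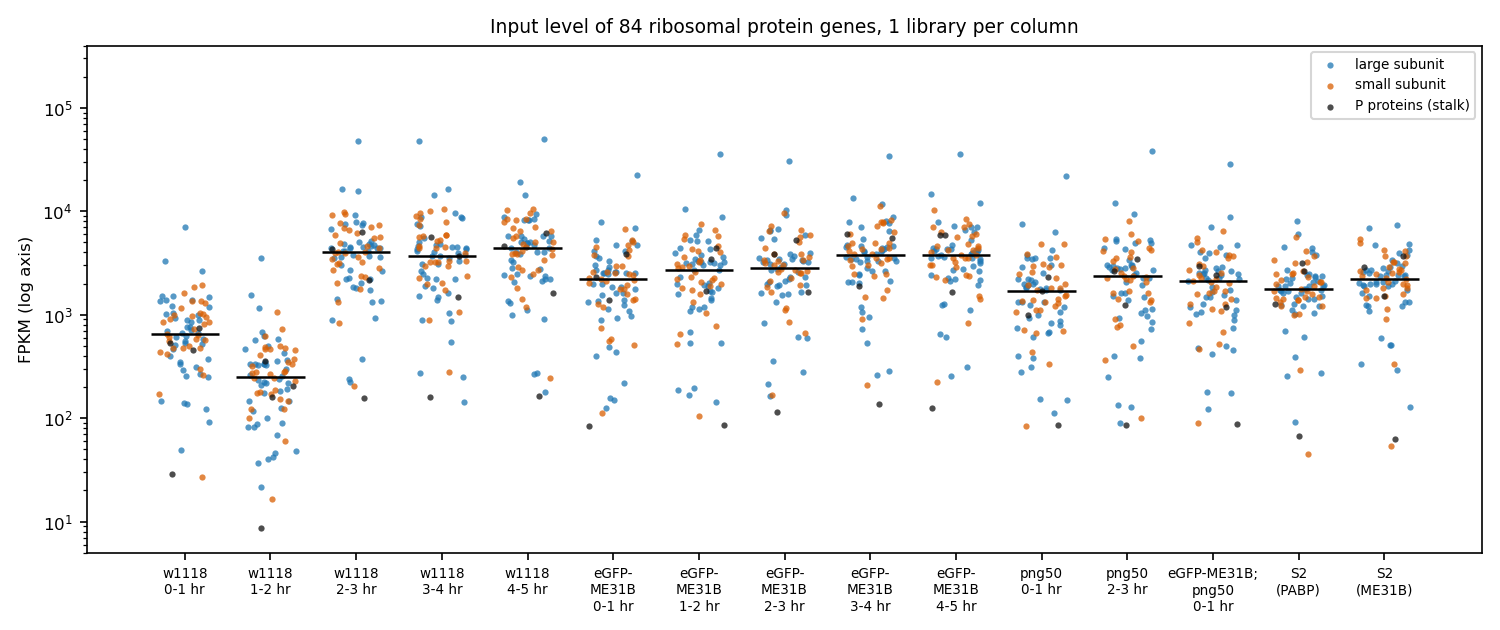
Input FPKM (log axis) of the 84 members above 0.5 FPKM in all libraries, 1 point per gene and 1 library per column, with the median as a black line. The single high point of most columns is *RpL41*, and the first 2 *w1118* columns lie low as a whole (medians of 658 and 250 FPKM, against 4008 FPKM at 2–3 hr).

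The 8 members that were not above 0.5 FPKM everywhere are all copies of an abundant gene, and 7 of them are described here. *RpL10Aa* was at 0 in 23 libraries and never above 0.305 FPKM, and *RpL22-like*, a paralog known from the germ line, was at 0 in 10 and at or below 0.5 FPKM in 25. *RpS28-like* (at most 1.11 FPKM) and *RpS28a* (at most 4.22 FPKM) were at 0 in 24 and 21 libraries. *RpL37b*, *RpS10a* and *RpS19b* were near 0 early and present late. *RpL37b* had 0 FPKM in the *w1118* inputs of 0–1 and 1–2 hr and 6.07, 19.1 and 20.6 FPKM in those of 2–3, 3–4 and 4–5 hr. In *eGFP-ME31B* inputs it had 0, 1.01, 2.02, 11.5 and 16.3 FPKM. *RpS10a* was at 0 in the first 3 *eGFP-ME31B* inputs and at 3.30 FPKM in the last, and it had 0.443 and 10.6 FPKM in the first and last *w1118* inputs. In *eGFP-ME31B* inputs *RpS19b* went from 0.548 FPKM in the youngest to 4.54 FPKM in the oldest embryos, and was highest of all inputs in S2 cells, at 11.3 and 8.34 FPKM. In the inputs none of these 3 gave more than 1.08% of the FPKM of its pair.

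In other pairs, matched by symbol, both genes were above 0.5 FPKM in all libraries, and the share of the minor gene differed from pair to pair. *RpS14a* (X, 7933742 to 7934677) and *RpS14b* (X, 7934898 to 7935792) lie in tandem, and *RpS14b* made up 22.8% to 29.2% of the pair in the 15 inputs. As near-identical copies they may share reads, and their single values are uncertain. *RpL34a* made up 18.2% (S2) to 46.4% (*w1118*, 1–2 hr) of its pair with *RpL34b*. In *w1118* inputs it had 45.3% at 0–1 hr and 21.5% at 4–5 hr, while in *eGFP-ME31B* inputs it kept to 21.1% to 22.5%. *RpL24-like*, whose human homolog is a factor of ribosome assembly, made up 17.3% to 35.4%, *RpL7-like* 3.89% to 6.47%, *RpLP0-like* 3.95% to 9.73% and *RpS15Ab* 2.34% to 6.97%. *RpS28a*, *RpL22-like* and *RpL10Aa* gave at most 0.0518% of their pairs in any input.

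Input levels of the members were higher at later ages relative to other mRNAs. The change from 0–1 hr was taken as a log2 ratio of FPKM within a table and centred on the median gene, over genes with at least 0.5 FPKM in both libraries. The members' median was 0.14, 1.40, 1.34 and 1.74 in *w1118* embryos at 1–2, 2–3, 3–4 and 4–5 hr, and 0.35, 0.48, 1.04 and 1.14 in *eGFP-ME31B* embryos. At 2–3 hr, 80 of 85 measured members were at least 2-fold higher in *w1118*, where 20.5% of all genes were, and 5 of 86 in *eGFP-ME31B*, where 7.55% were. At 4–5 hr the counts were 81 of 85 (23.1% of all genes) and 62 of 86 (21.3%). No member was 2-fold lower at either age, beside 27% and 25.1% of all genes in *w1118* and 15.6% and 23.3% in *eGFP-ME31B*. At 3–4 hr 70 of 85 (24.1% of all genes) and 49 of 86 (18.8%) were 2-fold higher. At 1–2 hr no member was, beside 6.07% and 2.19% of all genes, and 2-fold lower were 0 of 85 in *w1118* (6.09% of all genes) and, in *eGFP-ME31B*, *RpL38* alone (3.74%). In *png50* embryos at 2–3 hr the median was 0.53 and 0 of 85 members were 2-fold higher or lower, beside 1.44% and 1.53% of all genes. These changes are relative to the median gene, so a higher value does not by itself mean more RNA of the members. Bulk samples also give no amount per cell.

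The direction of this change rests on the scale. The median gene itself shifted by 1.06, 1.10 and 0.84 (log2, FPKM as deposited) in *w1118* inputs at 2–3, 3–4 and 4–5 hr, by −1.62 at 1–2 hr, and by −0.04 to −0.36 in *eGFP-ME31B* inputs. Scaled to worm RNA that was added to the samples, the median gene was lower by 0.51 to 2.31 at all later ages, and the members' median was −0.93, −0.085, 0.15 and −0.57 in *w1118* and −0.17, −0.29, 0.17 and −0.44 in *eGFP-ME31B* embryos at 1–2, 2–3, 3–4 and 4–5 hr. On that scale *png50* embryos gave −0.20 at 2–3 hr. The members were thus higher relative to the median gene in both strains, and near or below their 0–1 hr level relative to the added RNA.

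Most members kept close to this common course, and few departed from it. In *eGFP-ME31B* embryos the quartiles of the members were 0.98 and 1.37 at 4–5 hr, and in *w1118* embryos 1.58 and 2.02. *RpL38* (2R, 4515388 to 4516458), a large subunit protein, had 4665, 1135, 2337, 4042 and 2954 FPKM in the *eGFP-ME31B* inputs, and its centred changes were −1.99, −0.96, 0.03 and −0.30. In *w1118* inputs it had 1200, 336, 3646, 3751 and 2202 FPKM, with changes of −0.21, 0.54, 0.54 and 0.04. In *png50* embryos it went from 3547 to 2242 FPKM, a change of −0.62. It was the lowest member in all 4 *eGFP-ME31B* comparisons.

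*RpL4* (3R, 27922821 to 27924888), which overlaps a snoRNA gene, stood at the other end among members with at least 10 FPKM. It had 156, 169, 355, 946 and 1246 FPKM in *eGFP-ME31B* inputs, a change of 3.36 at 4–5 hr, where *RpL27* was at 2.39 and *RpS13* at 2.26. In *w1118* inputs *RpL4* had 249, 82.2, 1356, 867 and 1353 FPKM, a change of 1.61 at 4–5 hr, close to the members' median. *RpL23A* (3L, 1666288 to 1668654) had 91.6, 47.9, 241, 142 and 179 FPKM in *w1118* inputs, a change of 0.13 at 4–5 hr, and 218, 197, 277, 533 and 612 FPKM in *eGFP-ME31B* inputs, a change of 1.85. *RpL23A* overlaps the snoRNA host gene *Uhg7* and 4 snoRNA genes, and which reads belong to it is uncertain. *RpL38* was thus the lowest member at 4–5 hr in both strains, while the highest members differed. Over 85 members the 4–5 hr changes in the 2 strains had *r_s_* = 0.12, and over all 6457 genes *r_s_* = 0.79.

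*RpL36A* was also low in *eGFP-ME31B* embryos, at −0.05 at 2–3 hr and 0.47 at 4–5 hr. *RpL34a* was low in *w1118* embryos, at 0.56 and 0.33 at 2–3 and 4–5 hr, and at 0.41 and 1.67 in *eGFP-ME31B* embryos. In *w1118* embryos the highest members at 4–5 hr were *RpL37A* (2.44), *RpS15Ab* (2.36) and *RpS26* (2.29), and at 2–3 hr *RpL22* (2.18), *RpLP1* (2.03) and *RpLP2* (1.96). In *png50* embryos *RpL13A* (0.93) and *RpL41* (0.85) were among the 3 highest, and *RpL23A* (−0.71), *RpL38* and *RpS10b* (−0.20) the lowest.

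**Figure D2:**
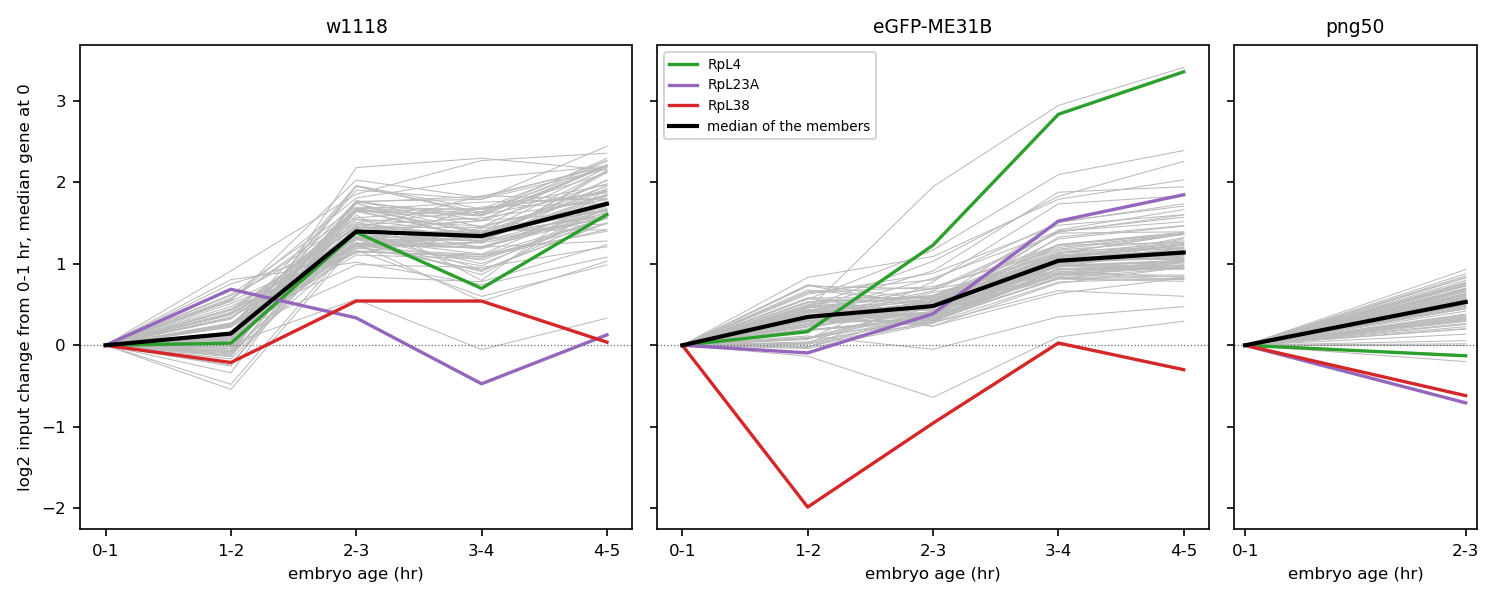
Log2 input FPKM relative to 0–1 hr of the same strain, centred on the median gene, 1 line per member, in *w1118*, *eGFP-ME31B* and *png50* embryos. The medians (black) end at 1.74, 1.14 and 0.53, and at −0.57, −0.44 and −0.20 when scaled to worm RNA, while *RpL38* (red) and, in *eGFP-ME31B*, *RpL4* (green) leave the common course.

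PABP bound the ribosomal protein mRNAs more than most other mRNAs, and the members' median lay at the 92.1st to 99.0th percentile of all genes at the different ages. Binding here means log2 of IP over own input FPKM, less its median over genes that exceeded 0.5 FPKM in each library of that set. At 0 a gene was bound as the median gene was, and nothing is said of absolute binding. The members' median PABP binding was 1.13, 2.08, 2.09, 2.04 and 1.52 at 0–1, 1–2, 2–3, 3–4 and 4–5 hr, and 2.52 in S2 cells. At 0–1 hr, 61 of 85 measured members were bound at least 2-fold more than the median gene, beside 10.4% of all 6086 genes. The counts were 82, 83, 82 and 79 at the later ages (14.2%, 17%, 11.7% and 11.7% of all genes), and 83 of 85 in S2 cells (15.8%). No member was bound 2-fold less in any of these IPs, beside 17.8%, 18.6%, 15.9%, 11.7% and 12.1% of all genes at the 5 ages and 9.69% in S2 cells. Members made up 45.6% of protein-coding FPKM in the PABP IP at 0–1 hr, 62.6% at 1–2 hr, 73.3% to 73.8% from 2–3 hr on and 72.4% in S2 cells.

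PABP binding was higher at 1–2 hr than at 0–1 hr for 82 of 85 members, beside 57.3% of all genes, with a median difference of 1.05. It was lower at 4–5 hr than at 3–4 hr for 83 of 85 members, beside 53.3% of all genes. Of the 85, 60 were bound 2-fold more at all 5 ages, as were 2.15% of all genes. Short mRNAs as a class were also bound more, with a median of 0.47 at 0–1 hr over 1077 genes with an annotated transcript of 1000 nt or less, 0.67 at 2–3 hr and, over 1421 genes, 0.84 in S2 cells. The members' medians were above these in each case. Among the members themselves PABP binding had no more than a weak relation to length in embryos (*r_s_* = −0.22 to −0.07), and one of −0.39 in S2 cells. Over all genes *r_s_* with length was −0.55 to −0.16 in embryos and −0.56 in S2 cells.

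Among single members, *RpL23A* (1.90), *RpL22* (1.72) and *RpS24* (1.65) had the highest PABP binding at 0–1 hr. *RpL23A* had 91.6 FPKM in the input and 861 FPKM in the IP at 0–1 hr, and 241 and 1724 FPKM at 2–3 hr, a binding of 4.37, but its binding was only 0.98 at 1–2 hr. *RpS15Ab* (−0.01) was among the 3 lowest at 0–1 hr. *RpS15Ab* stayed between −0.01 and 0.31 at all ages while its pair *RpS15Aa* was at 1.12 to 2.03, yet in S2 cells both were high (2.44 and 2.62). At 4–5 hr *RpL23A* (2.56), *RpL28* (2.37) and *RpS24* (2.35) had the highest PABP binding, and *RpL28* had 1293 FPKM in that input. In S2 cells *RpLP2* (3.61), *RpL41* (3.53) and *RpL35* (3.35) were highest, and *RpS19b* (0.70) and *RpS3A* (1.18), the sole member on chromosome 4, were lowest after *RpLP0-like*.

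*RpLP0-like* (2R, 10098518 to 10099590) was bound by PABP unlike the other members. Its human homolog is an assembly factor that resembles the stalk base protein and is not part of the finished ribosome. It had 28.8, 8.74, 157, 161 and 163 FPKM in the *w1118* inputs, and 88.3, 38.4, 36.0, 78.1 and 74.5 FPKM in the PABP IPs. Binding was 0.28 at 0–1 hr, then −0.60, −0.59, −0.41 and −0.82, and −0.14 in S2 cells. It was the only member below the median gene at 1–2 hr and later, under the filter used. *RpLP0* itself was at 0.32, 1.54, 1.66, 1.72 and 0.94, and at 2.64 in S2 cells.

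ME31B bound most members less than the median gene, and in log2 units the difference was widest at 2–3 hr. The members' median was −0.34, −0.83, −1.53, −1.18 and −0.86 from 0–1 to 4–5 hr, −0.85 in S2 cells and −1.25 in 0–1 hr *png50* embryos. *Act5C* was itself bound by ME31B less than the median gene in embryos (−0.81 to −1.81, and −2.25 in *png50*). Centred on *Act5C*, the members' medians at the 5 ages were 0.47, 0.48, 0.28, −0.13 and 0.22. That of *png50* embryos was 0.99 and that of S2 cells −0.34. On that scale, and by the percentile of the members' median among all genes (18.6 at 2–3 hr, 16.5 at 3–4 hr), the lowest age was 3–4 hr. At 0–1 hr, 18 of 86 measured members were bound at least 2-fold less than the median gene, beside 18.9% of all 6699 genes, a share near the background. The counts were 37, 62, 50 and 35 of 86 at 1–2, 2–3, 3–4 and 4–5 hr, where 24.9%, 28%, 20.6% and 20.1% of all genes were. In S2 cells they were 24 of 85 (7.8% of all genes and 26.2% of those up to 1000 nt). In *png50* embryos they were 51 of 85 (14.8% and 13.0%). Only *RpL34a* and *RpS25*, at 0–1 hr, were bound 2-fold more, beside 8.39% of all genes. At the later ages 15.7% to 23.9% of all genes were and no member, and likewise 8.11% in S2 cells and 5.68% in *png50* embryos.

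Relative to the median gene, most members had their low point at 2–3 hr. For 85 of 86 members ME31B binding was lower at 2–3 than at 0–1 hr, beside 42.5% of all genes, and for 83 it was higher at 4–5 than at 2–3 hr, beside 57.6%. Of the 86, 78 had their lowest value at 2–3 hr, as did 23.3% of all genes. The members made up 21.5%, 18.7%, 16.0%, 29.2% and 33.9% of protein-coding FPKM in the ME31B IPs, and 28.9%, 34.4%, 36.9%, 45.4% and 47.5% in their inputs. Short mRNAs as a class also had their lowest median at 2–3 hr, at higher values. Over 1214 genes of 1000 nt or less the median ME31B binding was 0.58, 0.36, −0.16, 0.18 and 0.27 at the 5 ages. In S2 cells, where ME31B bound short mRNAs less (−0.66 over 1421 genes), the members lay closer to them.

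**Figure D3:**
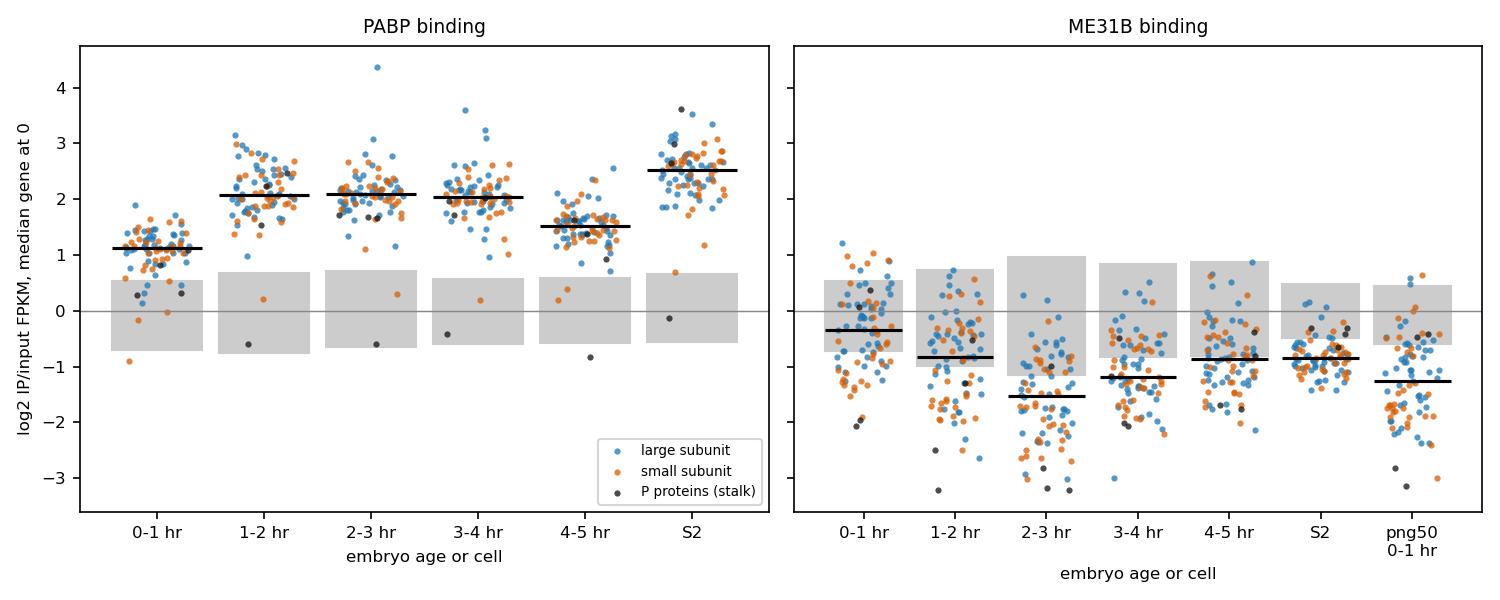
Log2 IP/input FPKM of the members for PABP (left) and ME31B (right), 1 point per gene and 1 pair of libraries per column, with the members' median (black line) and the range between the quartiles of all genes (grey box). PABP medians run from 1.13 to 2.52, and ME31B medians from −0.34 to −1.53, which centring on *Act5C* turns above 0 in all columns but 3–4 hr and S2.

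The acidic stalk proteins *RpLP1* and *RpLP2* were at the low end of ME31B binding in embryos. *RpLP1* (2L, 419952 to 420864) had 2289, 3482, 3882, 5524 and 5947 FPKM in the *eGFP-ME31B* inputs and 607, 388, 488, 1747 and 2236 FPKM in the ME31B IPs. Its binding was −2.06, −3.22, −3.18, −2.02 and −1.69. *RpLP2* (2R, 16586129 to 16586732) had 3876 FPKM in the 0–1 hr input and 1096 FPKM in the IP, and its binding was −1.96, −2.49, −3.21, −2.07 and −1.75. With *RpS14a* (−1.91 at 0–1 hr) they were the 3 lowest members at 0–1 hr. The same 3 were lowest in *png50* embryos, at −3.14 for *RpLP1* and −2.82 for *RpLP2*. There *RpLP1* had 2923 FPKM in the input and 415 FPKM in the IP, and *RpS14a* 1255 and 196 FPKM. In S2 cells *RpLP1* (−0.31) and *RpLP2* (−0.41) were above the members' median, and *RpLP2* had the highest PABP binding of all members there (3.61). The third stalk protein, *RpLP0* (3L, 22075867 to 22077487), was above the members' median at every age, at 0.06, −0.52, −0.99, −0.49 and −0.37.

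In all, 13 of 86 members were bound by ME31B 2-fold less at all 5 ages, beside 8.11% of all genes. They were *RpLP1*, *RpLP2*, *RpL7A*, *RpL22*, *RpL32*, *RpL37A*, *RpL41*, *RpS14a*, *RpS15Aa*, *RpS15Ab*, *RpS20*, *RpS21* and *RpS28b*. *RpL41*, the most abundant of them, had 22522 FPKM in the 0–1 hr input and 10440 FPKM in the IP, and 30496 and 4281 FPKM at 2–3 hr, a binding of −1.25 and −3.02. Small subunit members were lower than large subunit members at 0–1 hr (medians of −0.59 over 35 and −0.14 over 47) and in *png50* embryos (−1.58 and −1.07). At 4–5 hr (−0.88 and −0.85) and in S2 cells (−0.84 and −0.88) the medians were close.

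At the high end, *RpL34a* (3R, 26058420 to 26059267) and *RpL36A* were the only members above the median gene at all 5 ages. *RpL34a* had 126 FPKM in the 0–1 hr input and 324 FPKM in the IP. Its binding was 1.22, 0.73, 0.29, 0.32 and 0.44, while *RpL34b* was at 0.46, −0.55, −0.98, −0.82 and −0.69. With the *w1118* input as divisor, the 0–1 hr value of *RpL34a* turned to −0.40. Among members with at least 10 FPKM, *RpS25* (1.04) and *RpS27A* (0.90) followed at 0–1 hr and were below 0 from 2–3 hr on. *RpS27A*, which like *RpL40* encodes a ribosomal protein fused to ubiquitin, had 5287 FPKM in the 0–1 hr input and 10912 FPKM in the IP, whereas *RpL40* was at −0.33. *RpS27A* overlaps another gene on its strand, which makes its value less certain. At 4–5 hr *RpL24-like* (0.87), *RpL36A* (0.66) and *RpL30* (0.52) were highest and *RpL38* (−2.14), *RpS15Ab* (−2.02) and *RpL22* (−1.81) lowest. *RpL38* was irregular, at −0.73, 0.62, −1.31, −2.99 and −2.14, with 1135 FPKM in the 1–2 hr input and 1815 FPKM in its IP.

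In S2 cells the members lay close together, with quartiles of −1.02 and −0.65, and in another order. *RpL29* (−1.43), *RpL34b* (−1.42) and *RpS21* (−1.38) were bound least by ME31B, and *RpL22* (0.15), *RpL38* (0.13) and *RpL5* (0.06) most. *RpL22*, which overlaps 3 other genes on its strand, was thus among the highest members in S2 cells and among the lowest in 4–5 hr embryos. Over 85 members, ME31B binding at 0–1 hr and in S2 cells had *r_s_* = −0.18, and over all 6184 genes *r_s_* = −0.48. Shorter members were bound less in S2 cells (*r_s_* with length 0.41), which was not seen in embryos (−0.05 to 0.07). Over all genes *r_s_* with length was 0.63 in S2 cells and −0.59 to −0.17 in embryos.

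The *png50* embryos kept the order of the members but at lower values. At 0–1 hr, ME31B binding was lower than in *eGFP-ME31B* embryos for 81 of 85 members, beside 54.7% of all 6498 genes, with a median difference of −0.86. The order was similar (*r_s_* = 0.80 over 85 members, 0.66 over all genes). *RpL34b* differed most, at −1.52 against 0.46. *RpL24-like* (0.59) and *RpL21* (0.49) were among the 3 highest members in *png50*, and *RpL34a* was at −0.52. The IPs were quantified in separate tables, so that only binding within each is compared, and centred on *Act5C* the *png50* median was higher (0.99), not lower, than that of *eGFP-ME31B* embryos (0.47).

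Most members thus lay above the median gene in PABP binding and below it in ME31B binding. PABP binding was above 0 and ME31B binding below 0 for 54 of 85 members at 0–1 hr, beside 13.2% of all 6002 genes measured in both series, and for 74, 82, 79 and 78 at the later ages (13.9%, 19.4%, 18.9% and 21.9%). In S2 cells it was 81 of 85, beside 31.6% of 7309 genes. With ME31B centred on *Act5C* its median turns above 0 at all ages but 3–4 hr, and stays below 0 in S2 cells. Among the members these values had no more than a weak relation. Over the members, and in brackets over all genes, *r_s_* was −0.01 (0.59) at 0–1 hr, −0.23 (0.58) at 1–2 hr and 0.11 (0.32) at 2–3 hr. It was −0.04 (0.33) at 3–4 hr, −0.31 (0.15) at 4–5 hr and −0.17 (−0.34) in S2 cells. At 2–3 hr PABP binding of most members lay in a narrow band, with quartiles of 1.91 and 2.23. Over all 85 members ME31B binding ran from −3.21 (*RpLP2*) to 0.29 (*RpL34a*), and these lay outside the quartiles of PABP binding, at 1.72 and 2.77.

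**Figure D4:**
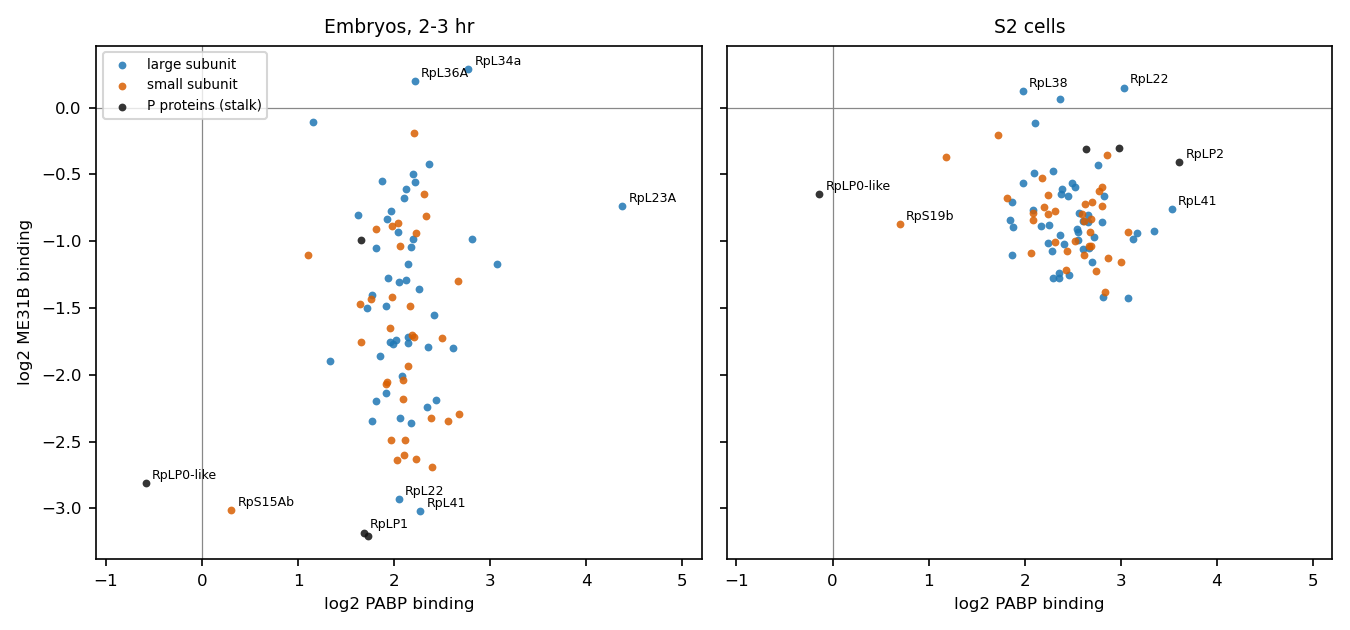
Log2 PABP binding (x axis) against log2 ME31B binding (y axis) of 85 members in 2–3 hr embryos (left) and in S2 cells (right), 1 point per gene. In embryos most points form a column at a PABP binding near 2.09, with *RpLP0-like* (−0.59) to its left, and in S2 cells they form a compact group. ME31B values of all points in embryos run from −3.21 to 0.29.

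Other genes of the translation machinery were set beside the members. The genes *sta* and *Rack1*, which encode ribosomal proteins under other symbols, had PABP binding of 0.57 and 0.88 and ME31B binding of −0.57 and 0.43 at 0–1 hr, and medians of 2.01 and −1.52 at 2–3 hr. For 7 measured genes of elongation factors and *Tctp*, the medians at 2–3 hr were 1.86 for PABP, with 6 genes 2-fold higher, and −2.10 for ME31B, with all 7 genes 2-fold lower. Of 14 ribosome biogenesis genes, 2 were bound by PABP 2-fold more and 4 less at 2–3 hr (median −0.70), and ME31B bound 7 of them 2-fold less and 2 more (median −0.90). Of 72 mitochondrial ribosomal protein genes 7 were bound by PABP 2-fold more at 2–3 hr (median 0.11), and of 73 ME31B bound 21 more and 7 less (median 0.45). Beside these counts at 2–3 hr, PABP bound 17% of all genes 2-fold more and 15.9% less, and ME31B 23.9% more and 28% less. In S2 cells ME31B bound 16 of 72 mitochondrial ribosomal protein genes 2-fold less (median −0.76), beside 7.8% of all genes.

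Members that hold a snoRNA gene on their own strand lay near the others in most measures. Of the 84 members above 0.5 FPKM everywhere, 28 do. Their median PABP binding at 2–3 hr was 2.05, against 2.10 in the other 56, and their median ME31B binding −1.51 against −1.73. At 0–1 hr ME31B binding was −0.63 and −0.30. Their input change from 0–1 to 4–5 hr was 1.82 and 1.72 in *w1118* and 1.22 and 1.12 in *eGFP-ME31B* embryos.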

How the data were processed

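The deposited values are FPKM per gene and library, which the authors obtained by trimming reads, mapping them with STAR 2.5.2a to the fly (dm6) or the fly and worm (ce10) genomes, and running Cufflinks 2.2.1 on stranded, rRNA-depleted libraries with 50-nt reads. FastQC 0.11.5, bcl2fastq 2.17 and R 3.1.2 are also named in the submitters' processing notes. During RNA extraction from lysates and IPs, 600 ng of worm RNA was added to samples. Nearly none is in the S2 ME31B and *png50* ME31B libraries, which no worm-scaled value uses. Worm genes gave only 0.404% to 1.17% of FPKM in the *eGFP-ME31B* inputs, against 16.5% to 35.7% in the *w1118* inputs. Scaling divided by summed worm FPKM without worm rRNA. The *w1118* and S2, *eGFP-ME31B* and *png50* libraries form 3 tables quantified separately, and binding and changes were computed within a table, except where another strain's input was the divisor. The authors made 2 biological replicates and present 1. All columns were used (0 left out).

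Binding and input change were computed as given above with filters of 0.5 FPKM. A call is 2-fold. Besides pairs, stalk proteins and ubiquitin fusions, members named were the 3 highest and 3 lowest of each measure with at least 10 FPKM in the divisor, with some others chosen after their values were seen. Some members that the rule names are not reported here, but all are in the counts and medians. Members, gene lists and rules were chosen with earlier results of these data known. Positions are on BDGP6 (Ensembl release 115), to which all 92 members were matched by symbol, and lengths are medians over a gene's annotated transcripts. Alternatives changed the filter, pseudocount, divisor, centring, fold limit and scaling, or left out members with overlaps or with a copy matched by symbol. Depth was estimated from genes with 1 transcript of at least 1500 nt and an assumed fragment of 200 nt. Procedures were tested on simulated data (Python 3.11.15, numpy 2.4.6, pandas 2.3.3, matplotlib 3.10.9).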

Additional observations from a re-analysis of the deposited data

Results flagged for a closer look

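A result was taken up here where a member lay on opposite sides of the median gene under the same comparison in different embryos or cells, by at least 0.5 on the log2 scale on each side. Only members among the 3 highest or 3 lowest of a compared condition, with at least 10 FPKM in the divisor, were looked at. Others met the same limits, such as *RpL23A* in ME31B binding. It was at 0.89 in 0–1 hr *eGFP-ME31B* embryos, −0.60 in *png50* embryos and −1.01 in S2 cells. None of these differences was tested, since each condition has 1 library. In ME31B binding, *RpL34a* was at 1.22 in 0–1 hr *eGFP-ME31B* embryos, at −0.52 in *png50* embryos of the same age and at −1.27 in S2 cells. *RpS25* was at 1.04 in the 0–1 hr embryos and at −0.997 in S2 cells, and *RpS27A* at 0.90 and −1.04. In the change of input from 0–1 to 2–3 hr, *RpL38* was at 0.54 in *w1118*, −0.62 in *png50* and −0.96 in *eGFP-ME31B* embryos.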

How the results depend on the processing

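No paired analysis was possible because each condition has 1 library, and no replicate could be left out. Centred on *Act5C*, the members' median ME31B binding turned to 0.47 at 0–1 hr, 0.28 at 2–3 hr, 0.22 at 4–5 hr and 0.99 in *png50* embryos. It stayed below 0 in S2 cells, at −0.34, while PABP moved to 1.95 at 0–1 hr and 2.30 at 4–5 hr. Divided by the input of the other strain, the medians were 2.15 for PABP at 4–5 hr and −2.45 and −1.36 for ME31B at 2–3 and 4–5 hr, and *RpL34a* turned to −0.40 at 0–1 hr. Centred on mRNAs of 1000 nt or less, ME31B was at −0.92 at 0–1 hr and −0.19 in S2 cells, and PABP at 1.68 in S2 cells. At a limit of 1.5-fold ME31B bound 36, 60 and 69 members less at 0–1 hr, 4–5 hr and in S2 cells, beside 28.9%, 31% and 20.7% of all genes. The input change of the members as deposited was 2.46 and 2.57 in *w1118* at 2–3 and 4–5 hr. Scaled to worm RNA it turned to −0.085 and −0.57 in *w1118* at 2–3 and 4–5 hr. It also turned to −0.29 and −0.44 in *eGFP-ME31B* at 2–3 and 4–5 hr and to −0.20 in *png50*. This scaling turned the change of *RpS26* to −0.012. Relative to *Act5C* the members' change was 0.49 and 0.85 in *w1118* and 0.32 in *eGFP-ME31B* at 4–5 hr. The fold of the median level in *w1118* from 0–1 to 4–5 hr, 6.66, was 1.73 when each level was divided by the summed fly FPKM. The cause of these shifts was not tested. Of 104 alternative values of median binding 80 moved by less than 0.5, as did 27 of 45 of median input change, 227 of 294 of single members' binding and 90 of 150 of their input change.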

Other observations

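The 14 members on the X chromosome had lower ME31B binding in embryos than the 70 on other chromosomes, among the 84 above 0.5 FPKM in all libraries. Their median was −1.001 against −0.270 at 0–1 hr, −2.06 against −1.48 at 2–3 hr and −1.26 against −0.83 at 4–5 hr, and −1.82 against −1.18 in *png50* embryos. At 0–1 hr 7 of the 14 and 11 of the 70 were bound 2-fold less, beside 18.9% of all genes. In S2 cells the medians were −0.81 and −0.85. In PABP binding they were 1.17 and 1.12 at 0–1 hr and 2.22 and 2.06 at 2–3 hr. The 14 include the adjacent copies *RpS14a* and *RpS14b*, and the split was chosen after earlier results of these data were known and was not tested.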
